A study of Homo sapiens
Mus musculus and Homo sapiens with 12 samples.

Results

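The S100 genes encode small calcium binding proteins, and 7 of them were followed here in human transcript tables from a cell fusion experiment: S100A2, S100A3, S100A4, S100A6, S100A8, S100A9 and S100A10. They are 7 of the 10446 human genes with a coding transcript listed in the deposited tables. They were taken by name, and the value of a gene is the sum of its RefSeq coding transcripts in each library. Heterokaryons are transient fused cells whose nuclei stay separate; here each joined cells of D3, a line of mouse embryonic stem cells, with cells of MRC5, a human fibroblast line of lung origin. They were sorted, at least 30000 per sample, 1, 2 and 3 days after fusion, with 2 libraries per day. The comparison samples were 1 homokaryon library of fibroblasts fused with each other, 2 co-cultures of the same mouse and human cells with separate membranes, whose RNA was harvested together, and 3 samples of unfused MRC5 fibroblasts. The labels name no added gene or drug in any group. Whether replicates came from separate cultures is not stated, so the spread behind every p-value may be technical.

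S100 proteins are built from a pair of EF hands, the helix and loop motif that holds calcium, and most work as dimers. Calcium opens a surface on the dimer that grips partner proteins such as annexins and myosin heavy chains, so the family links calcium to membranes and the cytoskeleton. Some members also act outside the cell: S100A8 and S100A9 form calprotectin, an abundant protein of neutrophils and monocytes. Fibroblasts are known to express S100A4, S100A6 and S100A10, whereas S100A2 is a gene of basal keratinocytes and S100A3 of the hair cuticle.

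Most S100 genes lie side by side on chromosome 1. In the RefSeq gene order S100A3 stands between S100A4 and S100A2, S100A4 between S100A5 and S100A3, and S100A6 between S100A7 and S100A5. S100A12 is the neighbour of both S100A8 and S100A9, and S100A11 is the neighbour of S100A10. The reads of such related genes can be told apart only where their sequences differ. The coding sequences of S100A10, S100A4 and S100A3, the 3 members above 0 in all 10 libraries with a usable part for them, are printed from GENCODE 29, from the start codon for at most 300 bases, to show what reads have to tell these genes apart. Capitals mark the longest run of bases found unchanged in a transcript of another human gene.

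S100A10: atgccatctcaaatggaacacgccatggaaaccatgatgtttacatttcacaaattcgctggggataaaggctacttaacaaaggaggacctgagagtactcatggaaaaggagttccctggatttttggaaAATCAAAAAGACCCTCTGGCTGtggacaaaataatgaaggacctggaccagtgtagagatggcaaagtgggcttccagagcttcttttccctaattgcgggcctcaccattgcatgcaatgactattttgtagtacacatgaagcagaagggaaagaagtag
S100A4: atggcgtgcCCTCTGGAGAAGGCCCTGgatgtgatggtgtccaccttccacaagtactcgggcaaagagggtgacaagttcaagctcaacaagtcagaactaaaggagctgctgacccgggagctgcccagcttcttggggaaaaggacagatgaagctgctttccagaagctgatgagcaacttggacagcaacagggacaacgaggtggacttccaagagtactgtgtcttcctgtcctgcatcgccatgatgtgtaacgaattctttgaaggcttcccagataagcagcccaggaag
S100A3: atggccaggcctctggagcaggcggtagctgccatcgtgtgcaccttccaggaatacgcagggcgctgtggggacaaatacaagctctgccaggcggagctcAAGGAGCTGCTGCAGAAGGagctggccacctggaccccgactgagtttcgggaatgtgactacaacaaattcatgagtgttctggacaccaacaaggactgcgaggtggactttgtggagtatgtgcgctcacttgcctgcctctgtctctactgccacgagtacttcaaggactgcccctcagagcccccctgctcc

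The longest run that S100A10 shares with another gene is 22 bases, with the processed pseudogene AC005921.1, in a coding sequence of 294 bases for 97 residues. S100A4 shares at most 18 bases, with its neighbour S100A5, and S100A3 at most 19 bases, with DBF4B, in coding sequences of 306 bases each. Across all 7 members the longest shared run was between 17 and 22 bases. The mouse counterparts were not compared here, so how far mouse reads of a mixed library could add to a human value was not tested.

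The tables set which members can be seen. Each usable table holds 10000 distinct values, listed for accessions up to a stopping point in accession order that differs between libraries. An accession before that point with no value was taken as 0, and one past it as not covered. S100A10, S100A3, S100A8 and S100A9 were covered in full by all 8 mixed libraries, by the homokaryon library and by unfused fibroblast replicate 2. S100A4 has 2 coding accessions and only NM_002961 was covered, so its values are a part of the gene. S100A2 was covered in both day 1 heterokaryon libraries and co-culture replicate 2, and S100A6 in no library. Unfused fibroblast replicate 1 covered no member and replicate 3 lists no human transcript, so unfused fibroblasts are represented by replicate 2 alone. Values are given as RPKM, reads scaled to transcript length and to the library total. That unit is inferred, no read totals are given in the sources used here, and the depth of each library is therefore unknown.

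Fibroblast markers were present in every library. Of 15 fibroblast markers, 9 were covered everywhere, and they summed to between 4739 and 7811 RPKM in the heterokaryons, 16130 in the homokaryon library, 7003 to 7097 in co-culture and 7728 in unfused fibroblast replicate 2; LUM was the single marker at 0 in 4 heterokaryon libraries and in 1 co-culture library. Against co-culture, 2 of 9 tested fibroblast markers were lower on day 1, 3 on day 2 and 0 on day 3. Over all genes the shares called lower were 4.69%, 3.94% and 1.23%. Each of these marker calls ended without either co-culture library, and that of PDGFRB on day 1 also without day 1 replicate 1. The day 2 calls ended as well without either day 2 library, after upper quartile scaling and with genes covered in part. In these bulk samples fewer human cells and less RNA of these genes per cell cannot be told apart.

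S100A10, which binds no calcium itself and tethers annexin A2 to the inner face of the plasma membrane, was the most abundant covered member in every library. The day 1 heterokaryons had 1066 and 573 RPKM, the day 2 libraries had 566 and 563, and those of day 3 had 543 and 119.7. The homokaryon library had 193 RPKM, the co-cultures had 190.0 and 176, and unfused fibroblast replicate 2 had 304. Thus 5 of the 6 heterokaryon libraries lay above every other library, and day 3 replicate 2 lay below all of them. The mean was 819.7 ± 348 RPKM for day 1, 565 ± 2.23 for day 2 and 331 ± 299 for day 3, and 183 ± 9.71 for co-culture (SD, n = 2 each). In rank order the second day 1 library, both day 2 libraries and day 3 replicate 1 differed by less than the spread within day 1, and the homokaryon library differed from the higher co-culture value by less than the spread within co-culture.

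**Figure D1:**
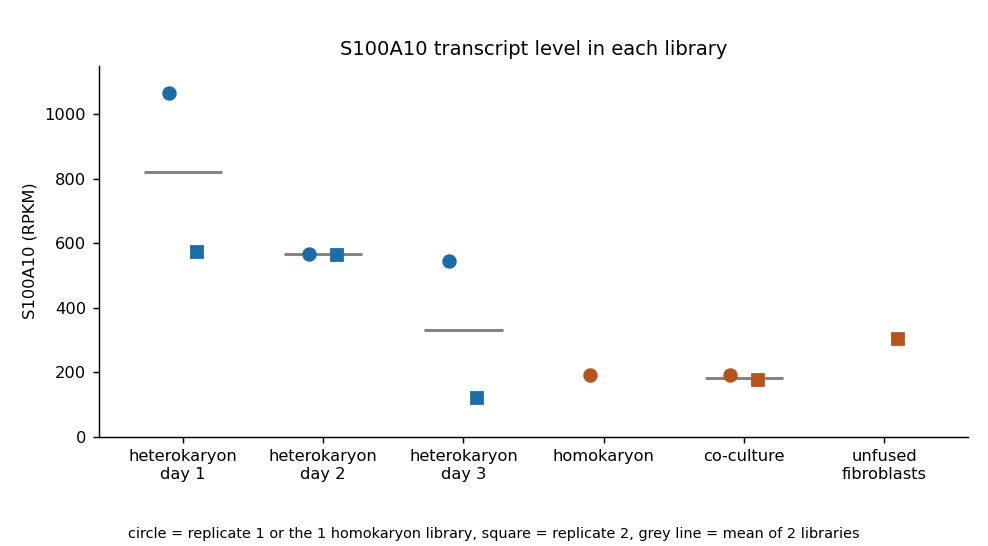
S100A10 level in RPKM (vertical axis) in each library, by group (horizontal axis); points are single libraries and grey lines are means of 2 libraries. The day 1 and day 2 heterokaryons lie at 563 RPKM or more, co-culture lies at 190.0 RPKM or less, and the day 3 heterokaryons are split between 543 and 119.7 RPKM.

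The same split shows in the rank of S100A10 among all genes covered and listed in a library. Its rank was 57 of 3442 and 81 of 3711 in the day 1 libraries, 56 of 2872 and 60 of 2964 in those of day 2, and 62 of 3172 and 267 of 3181 in those of day 3. It was 175 of 3335 in the homokaryon library, 205 of 3418 and 216 of 3499 in the co-cultures, and 101 of 2958 in unfused fibroblast replicate 2. A rank does not depend on how a library was scaled, but the covered genes differ between libraries.

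For day 1 against co-culture, S100A10 had a log2 fold change of 2.09 (SE 0.61), a 4.25-fold difference with a 95% interval of 1.59 to 11.4, on the log2(RPKM + 1) scale used for all fold changes. It did not pass limma's moderated test with Benjamini-Hochberg adjustment over all 3585 genes (adjusted p = 0.0682, called under 0.05). No member was called among the 3 tested at day 1, where 11% of all genes were called. S100A9, 1 of the 3, was at 0 in both groups and could not be called. Only S100A10 had an unadjusted p under 0.05 (0.00938), as did 27.4% of all genes. In size, 5.41% of tested genes had a log2 fold change as high as that of S100A10 or higher. Both day 1 libraries exceeded both co-cultures, as they did for 27.9% of all tested genes.

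At day 2 the difference was 1.62 on the log2 scale (SE 0.62), or 3.07-fold with a 95% interval of 1.14 to 8.28. Here too none of the 3 members tested was called (S100A10 adjusted p = 0.143, unadjusted 0.0310), against 10.8% of 2439 genes called and 25.6% with an unadjusted p under 0.05. Both day 2 libraries lay above both co-cultures, as they did for 39.4% of all tested genes. The median log2 fold change of all genes at day 2 was 0.29, so relative to the typical gene the difference of S100A10 is smaller by that amount. At day 3 it was 0.48 (SE 0.61; 95% interval of the fold 0.524 to 3.70; adjusted p = 0.752), with 0 of 3 members called against 3.55% of 3013 genes; no member had an unadjusted p under 0.05, against 18.3% of all genes.

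These calls depend on which libraries enter the fit. The replicated groups share the estimate of spread. The part of it from S100A10 itself comes from the 8 mixed libraries, since only 1 unfused fibroblast library covered the gene. Day 3 replicate 2 is among those 8, although it belongs to neither group of the day 1 and day 2 comparisons. Without that library the adjusted p of S100A10 was 0.0134 at day 1, where 13.3% of all genes were called, and 0.0212 at day 2, where 15.6% were; this setting was chosen after the data were seen. A fit of only the 2 groups gave 0.0369 at day 1 (6.98% of genes called) and 0.00315 at day 2 (24% called). Leaving out either co-culture library or the first day 1 library gave adjusted p of at least 0.218 at day 1. At day 3 the direction itself rests on single libraries: the log2 fold change was -0.61 without replicate 1 and 1.56 without replicate 2, with adjusted p = 0.396 and 0.0978.

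**Figure D2:**
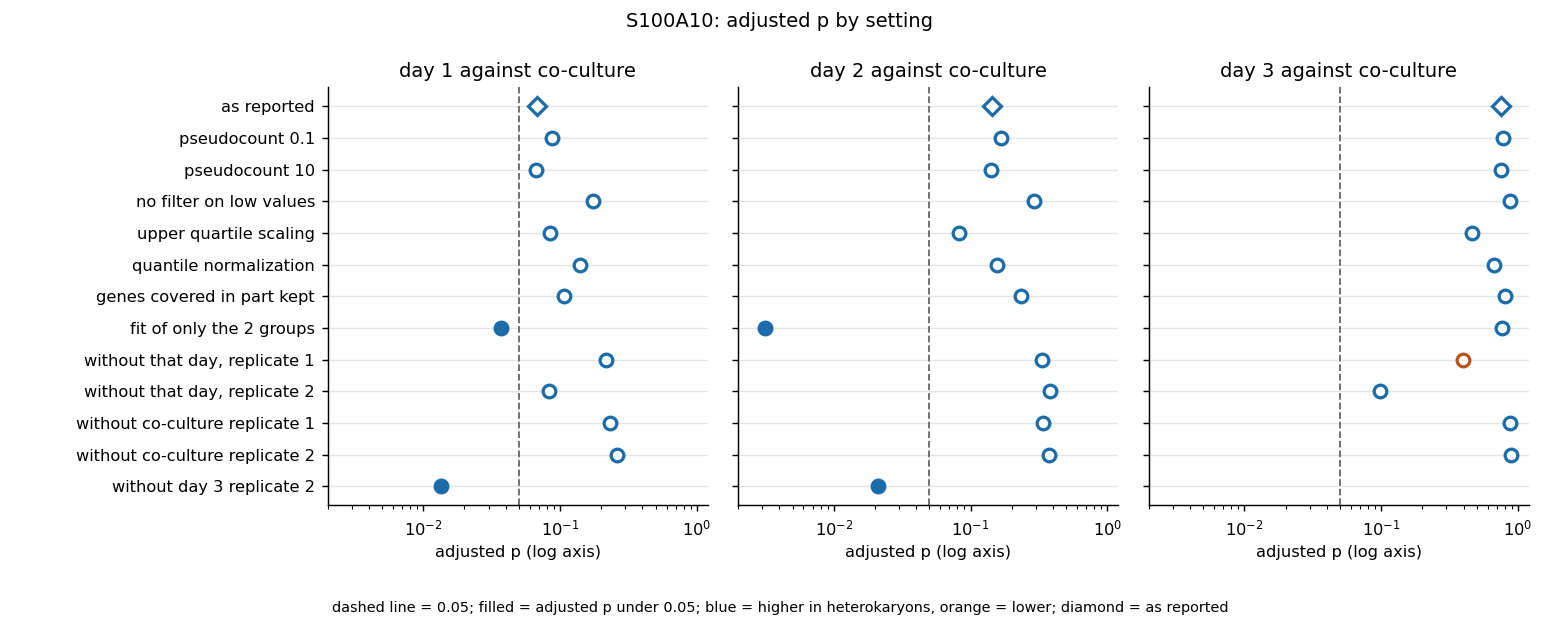
Adjusted p of S100A10 (horizontal log axis, dashed line at 0.05) for each heterokaryon day against co-culture, under the settings named on the vertical axis; filled points passed and orange marks a lower level in heterokaryons. Among the settings shown, the day 1 values run from 0.0134 without day 3 replicate 2 to 0.262 without co-culture replicate 2, and at day 3 none passed.

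Between days, S100A10 was not called. Day 2 against day 1 gave a log2 fold change of -0.47 (adjusted p = 0.717), with 0 of 3 members called against 0.328% of all genes. Day 3 against day 2 gave -1.14 (adjusted p = 0.681), where limma called 0% of all genes and 8.16% had an unadjusted p under 0.05, and none of the 3 members did. Day 3 against day 1 gave -1.61 (SE 0.61, unadjusted p = 0.0299, adjusted p = 0.213), with 0 of 3 members called against 1.23% of all genes. Without day 3 replicate 1 that last difference was -2.70 and passed (adjusted p = 0.0410; 1.59% of all genes called), and without day 3 replicate 2 it was -0.52. The comparisons between days share their day 1, day 2 or day 3 libraries with each other and with those against co-culture.

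Against single libraries the fit has to assume that the lone library varies like the other groups; these comparisons were added after the data were seen. Against the homokaryon library S100A10 differed by 2.01 at day 1, 1.55 at day 2 and 0.40 at day 3 on the log2 scale, with adjusted p = 0.153, 0.297 and 0.860 (SE 0.76 to 0.77). The shares of all genes called there were 7.11%, 5.22% and 2.23% on the 3 days, and 0 of 3 members were called on each. Against unfused fibroblast replicate 2 the differences were 1.36, 0.89 and -0.25, with adjusted p = 0.374, 0.638 and 0.966. There 4%, 3.12% and 1.55% of all genes were called and again 0 of 3 members. Co-culture differed from unfused fibroblast replicate 2 by -0.73 (adjusted p = 1), where 0.416% of all genes and 0 of 3 members were called, and from the homokaryon library by -0.07 (adjusted p = 1), where 0.857% of all genes and 0 of 3 members were called. S100A9, 1 of the 3 members, was at 0 on both sides of the day 1 and co-culture comparisons here and could not be called in them. The homokaryon library itself had 0.634 times the S100A10 level of unfused fibroblast replicate 2, without a test.

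S100A10 protein is held as a tetramer with annexin A2, encoded by ANXA2, whose binding is known to protect S100A10 from degradation. ANXA2 has 4 coding accessions, of which 3 were covered in all 10 libraries. Those 3 summed to 996 and 1225 RPKM in the day 1 heterokaryons, to 1815 and 1434 in those of day 2, and to 1850.2 and 468 in those of day 3. The sum was 601 in the homokaryon library, 1343 and 1229 in the co-cultures, and 2516 in unfused fibroblast replicate 2. Both S100A10 and the 3 ANXA2 accessions were therefore at their lowest in day 3 replicate 2. With all 4 accessions, however, ANXA2 had 930 RPKM there, above the 618 of the homokaryon library. The ratio of S100A10 to the sum of the 3 accessions was 1.07 and 0.468 in the day 1 libraries. It was 0.312 and 0.393 in those of day 2, and 0.293 and 0.256 in those of day 3. It was 0.321 in the homokaryon library, 0.141 and 0.144 in the co-cultures and 0.121 in unfused fibroblast replicate 2. On this measure every heterokaryon library, and the homokaryon library, lay above co-culture and the unfused fibroblasts.

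The ordering depends on the fourth ANXA2 accession. It was not covered in day 2 replicate 1 or unfused fibroblast replicate 2, and it stood at 461 RPKM in day 3 replicate 2, against 0 to 32.7 in the other libraries that covered it. With it, the ratio of day 3 replicate 2 was 0.129, below the 0.138 and 0.144 of co-culture, while the others changed little: 1.06 and 0.468 at day 1, 0.393 in day 2 replicate 2, 0.293 in day 3 replicate 1 and 0.312 in the homokaryon library. The ratio was chosen after the values were seen and was not tested. ANXA2 as a whole gave a log2 fold change of -0.23 for day 1 and 0.01 for day 3 against co-culture (SE 0.33 each), which did not pass (adjusted p = 0.714 and 0.994), and was not covered in full on day 2.

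**Figure D3:**
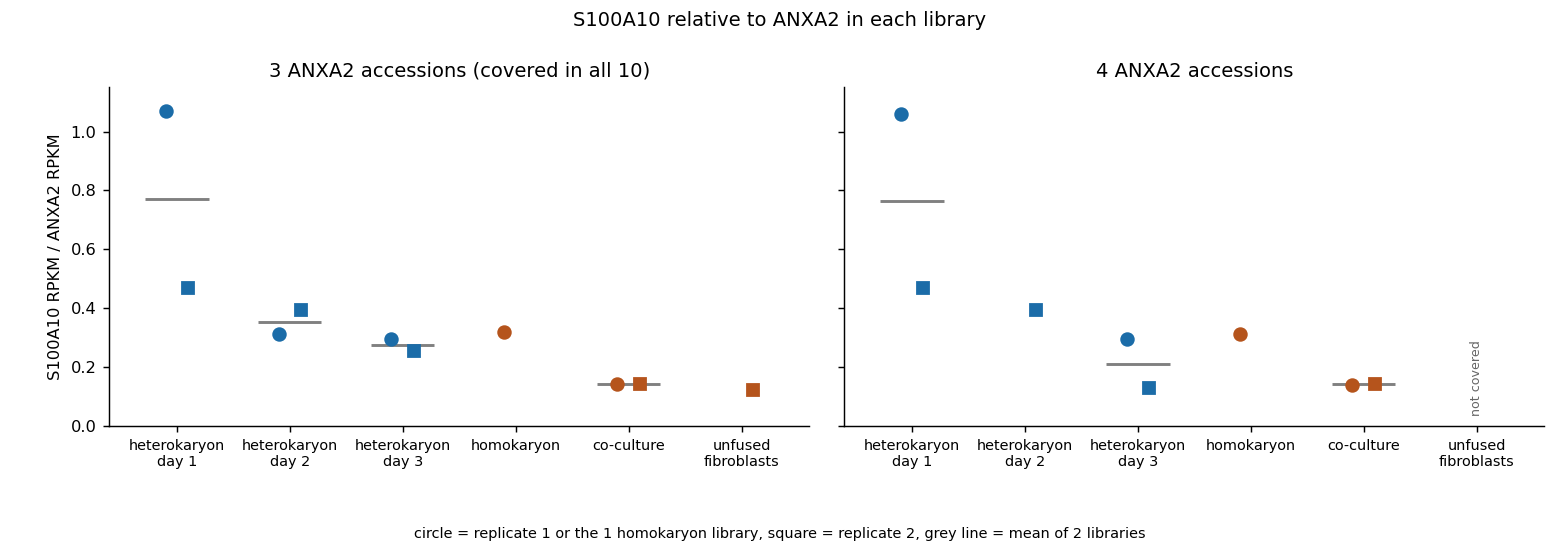
Ratio of S100A10 to ANXA2 (vertical axis, RPKM over RPKM) in each library by group, with 3 ANXA2 accessions on the left and all 4 on the right, where day 2 replicate 1 and unfused fibroblast replicate 2 are missing. On the left all heterokaryon libraries lie at 0.256 or more and co-culture at 0.144 or less; on the right day 3 replicate 2 falls to 0.129.

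S100A4, which binds the heavy chain of non-muscle myosin and is widely used as a fibroblast marker, was followed through its covered accession. It had 105.8 and 14.6 RPKM in the day 1 heterokaryons, 57.9 and 37.1 in those of day 2, and 10.4 and 46.8 in those of day 3. The homokaryon library had 11.4 RPKM, the co-cultures had 9.58 and 17.6, and unfused fibroblast replicate 2 had 20.4. Only the day 2 libraries both lay above both co-cultures, and day 1 and day 3 each had 1 library within the range of co-culture. Among the genes covered in full and tested at day 2, 39.4% also had both libraries above both co-cultures. In the fit that keeps genes covered in part, the log2 fold change was 1.54 at day 1, 1.76 at day 2 and 0.74 at day 3 (SE 0.99 to 1.01), with adjusted p = 0.423, 0.400 and 0.811. With single libraries left out, the log2 value ran from 0.15 to 2.93 at day 1 and from -0.29 to 1.77 at day 3. That fit called 0 of 4 members on each day, against 5.93%, 3.19% and 1.2% of all genes. S100A9, 1 of the 4, was at 0 in both groups of the day 1 comparison and could not be called there. How reads were divided between the covered accession of S100A4 and the uncovered one could not be seen, so a level of the whole gene is not given.

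S100A3, a cysteine rich member that also binds zinc, had 10.1 and 18.1 RPKM in the day 1 heterokaryons, 19.1 and 15.4 in those of day 2, and 39.0 and 14.5 in those of day 3. It had 4.22 RPKM in the homokaryon library, 20.8 and 2.36 in co-culture and 9.59 in unfused fibroblast replicate 2. The co-cultures differed 8.84-fold from each other and enclosed all day 1 and day 2 values, and day 3 replicate 1 was the single heterokaryon library above both. The log2 fold changes against co-culture were 0.77, 1.08 and 1.54 on the 3 days (SE 0.86 each), with adjusted p = 0.621, 0.471 and 0.408. Their 95% intervals run from 0.430 to 6.72-fold at day 1, 0.533 to 8.41-fold at day 2 and 0.742 to 11.4-fold at day 3, so neither a decrease nor a several-fold increase lies outside them. With a library left out, the log2 difference ran from -0.59 to 2.12 at day 1, from -0.27 to 2.43 at day 2 and from 0.19 to 2.89 at day 3.

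S100A2, the member best known from basal keratinocytes, was covered in 3 libraries. It had 16.7 and 10.9 RPKM at day 1, against 4.89 in co-culture replicate 2. The fit against that single co-culture library gave a log2 fold change of 1.30 (SE 0.69, adjusted p = 0.429), a 2.46-fold difference with a 95% interval of 0.703 to 8.64. In that comparison 0 of 4 members were called, against 1.17% of all genes; S100A10 and S100A3 had an unadjusted p under 0.05, as did 18% of all genes. S100A3 differed there by 2.12 on the log2 scale, against 0.77 with both co-cultures, where it had 20.8 and 2.36 RPKM. Its size in that comparison therefore rests on which co-culture library is kept. S100A9, 1 of the 4, was at 0 in both groups and could not be called. S100A6, known as calcyclin and a ligand of annexin A11, lies past the end of every table and was not analysed here.

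The calprotectin genes were listed almost nowhere. S100A9 had 3.11 RPKM in day 2 replicate 1 and 9.93 in day 3 replicate 2, and S100A8 had 1.74 in day 2 replicate 1. Both were unlisted, and so taken as 0, in the other heterokaryon libraries, in the homokaryon library, in both co-cultures and in unfused fibroblast replicate 2. No heterokaryon group had S100A9 in both libraries. It passed the filter on low values only through these 2 heterokaryon libraries and is at 0 in co-culture. No fold change against co-culture is therefore given, and its place among the tested members carries no direction. S100A8 did not reach 1 RPKM in 2 libraries and was fitted only with no filter on low values, where it did not pass (adjusted p = 0.434 for day 2 against co-culture). The depth is unknown, so no limit can be put on a level taken as 0.

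Markers of myeloid cells, another source of calprotectin, were low throughout. Of 14 myeloid markers 8 were covered in all 10 libraries, with summed levels of 13.7 to 16.6 RPKM on day 1, 3.41 to 13.1 on day 2 and 1.13 to 9.22 on day 3, against 9.06 in the homokaryon library, 0.346 to 5.24 in co-culture and 4.39 in unfused fibroblast replicate 2. ELANE and FCGR3A, which mark neutrophils and other leukocytes, were at 0 in all 10. On each day 4 myeloid markers were tested against co-culture and 0 were called, against 11%, 10.8% and 3.55% of all genes. Their median log2 fold changes were 0.86, 0.60 and 0.25, beside 0, 0.29 and 0.07 over all genes. Day 3 replicate 2, the library with the most S100A9, had 6 of the 8 at 0, as had co-culture replicate 1. In day 2 replicate 1, which had both S100A8 and S100A9, 3 of the 8 were at 0 and the sum was 13.1 RPKM. Keratinocytes also make S100A2, S100A3, S100A8 and S100A9. The 7 covered of 17 keratinocyte and epithelial markers summed to between 101 and 595 RPKM in the heterokaryons, 20.8 in the homokaryon library, 6.75 to 22.2 in co-culture and 11.4 in unfused fibroblast replicate 2. Of 8, 6 and 8 tested markers on the 3 days, 1, 1 and 2 were higher than in co-culture, where 6.36%, 6.85% and 2.32% of all genes were. KRT19, a keratin of simple epithelia, was the only marker called higher on each day. It had 86.6 and 58.4 RPKM in the day 1 heterokaryons, 259 and 329 in those of day 2, and 221 and 144 in those of day 3. It had 3.18 in the homokaryon library, 5.94 and 6.29 in the co-cultures and 6.95 in unfused fibroblast replicate 2. Its log2 fold changes were 3.34, 5.36 and 4.66 (SE 0.33 each; adjusted p = 0.00224, 0.000281 and 0.000887), and it was called under every alternative run. The 7 covered markers summed to 595 and 350 RPKM in the day 3 libraries and to 570 in day 2 replicate 2. KRT19 was therefore only a part of those sums, with the rest in other covered markers. KRT14, a keratin of basal keratinocytes, was the other marker counted on day 3, at 2.73 and 3.85 RPKM against 0 in both co-cultures. It passed the filter on low values only through the day 3 libraries, so its place in that count carries no direction. Its call also ended in the fit of only the 2 groups and without either co-culture library. KRT5, the partner keratin of KRT14, was at 0 in every library except day 2 replicate 1. The part of these cell types in the S100 values was not tested.

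**Figure D4:**
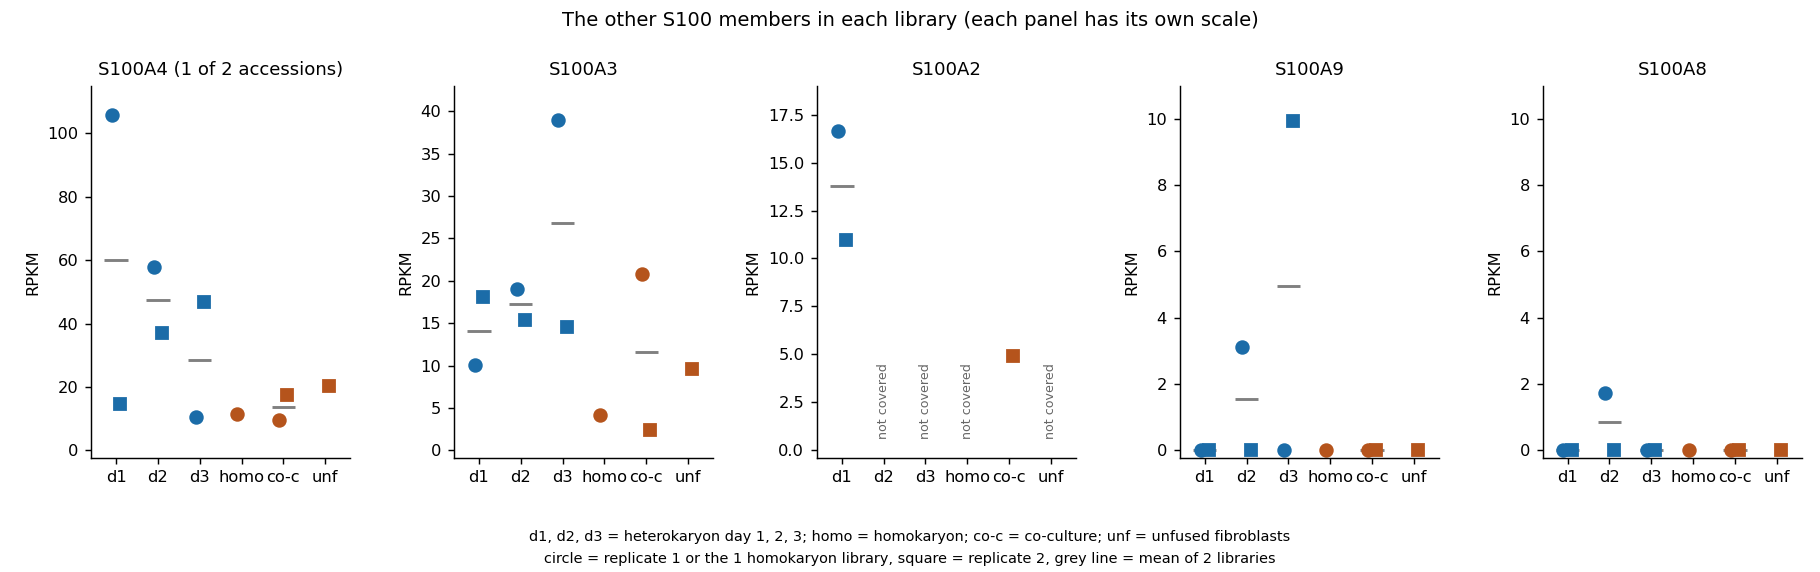
Level in RPKM (vertical axes, each with its own scale) of S100A4, S100A3, S100A2, S100A9 and S100A8 in each library, by group (horizontal axes); points are single libraries and grey lines are means of 2 libraries. S100A4 and S100A3 heterokaryon values overlap those of co-culture, S100A9 is above 0 in 2 libraries and S100A8 in 1.

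The fits of S100A10, S100A4 and S100A3 on the 3 days share the same 2 co-culture libraries. Their 95% intervals include 0 except for S100A10 at day 1 and day 2.

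**Figure D5:**
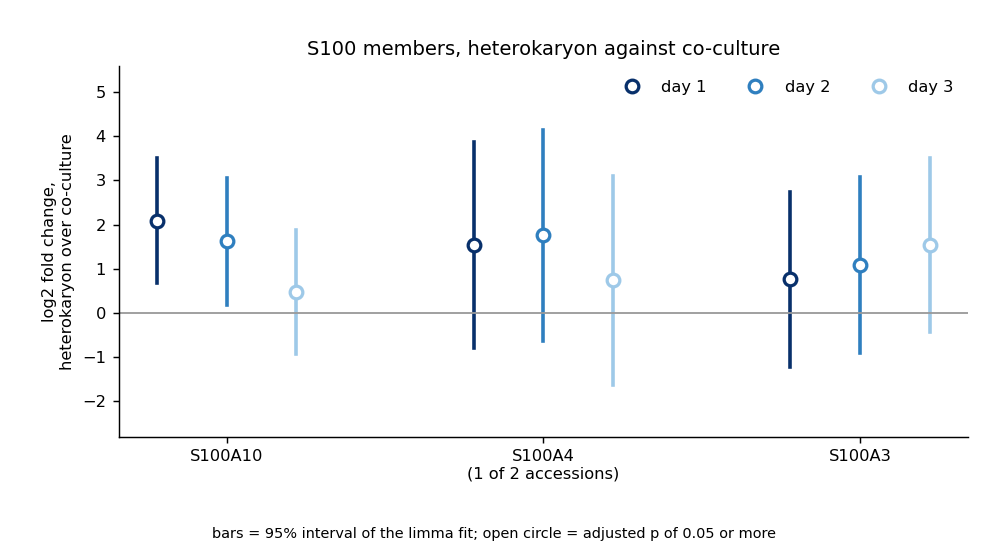
Log2 fold change of heterokaryons over co-culture (vertical axis) for S100A10, S100A4 and S100A3 (horizontal axis) on each day; bars are 95% intervals of the limma fit and open circles mark an adjusted p of 0.05 or more. S100A10 lies at 2.09, 1.62 and 0.48 on the 3 days, and no circle is filled.

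Against co-culture the other S100 genes gave no call. Of 13 further genes, 5 were covered at day 1, 2 at day 2 and 3 at day 3, and 3, 2 and 2 were tested. S100A11, the chromosomal neighbour of S100A10 and a partner of annexin A1, had 937 and 899.5 RPKM at day 1, against 1151 in the homokaryon library and 1289 and 1010 in co-culture. Its log2 fold change was -0.31 (SE 0.22, adjusted p = 0.429). Both day 1 values lay below both co-culture values, but the share of all genes that did so was not counted. S100A11 was not covered on day 2 or day 3. S100A5, the neighbour of S100A4, was listed in both day 2 libraries, at 1.24 and 5.03 RPKM, and at 0 in every other covered library. S100A7, a keratinocyte member, had 5.48 RPKM in day 1 replicate 1 and 3.88 in day 2 replicate 2 and was at 0 elsewhere. Both genes passed the filter on low values only through these heterokaryon libraries and were at 0 in co-culture. Their place among the tested genes therefore carries no direction, and no test of them is read.

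Among 20 partners and receptors of the members, 4, 3 and 4 were tested on the 3 days and none was called in either direction. Their median log2 fold changes were -0.25, -0.17 and 0.29, beside 0, 0.29 and 0.07 over all genes. MYH9, the non-muscle myosin heavy chain that S100A4 binds, differed by -0.51, -0.17 and 0.53 (adjusted p = 0.138, 0.645 and 0.212). LGALS3, a galectin that S100A6 binds, differed by 0.82, -2.08 and 0.27 (adjusted p = 0.784, 0.451 and 0.965). Of 12 annexins, 6, 4 and 5 were tested and none was called, with medians of -0.06, 0.36 and 0.01.

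Against co-culture, other EF hand proteins gave 1 call, on day 2, where 10.8% of all genes were called. Of 22 on the list, 9, 6 and 6 were tested, with medians of 0.43, 0.22 and -0.22. CAPNS1, the small regulatory subunit of the calpain proteases, had 480.0 and 326 RPKM in the day 1 heterokaryons, 334 and 371 in those of day 2 and 346 and 398 in those of day 3. It had 574 in the homokaryon library, 771 and 684 in the co-cultures and 731 in unfused fibroblast replicate 2. All 6 heterokaryon libraries lay below all others, but the share of all genes that did so was not counted. Its log2 fold change was -0.87, -1.04 and -0.97 (SE 0.24 each), so that it fell on day 2 (adjusted p = 0.0337) and did not pass on day 1 (adjusted p = 0.0528) or day 3 (adjusted p = 0.0708). The day 2 call ended without either day 2 or either co-culture library (highest adjusted p = 0.182), after upper quartile scaling, with no filter and with genes covered in part. Its partners CAPN2 and CAPN1 differed by -1.13 and 1.07 at day 1 (adjusted p = 0.0548 and 0.0806), and SPARC, a secreted matrix protein, by 0.76 (adjusted p = 0.0558). Against the homokaryon library, which is 1 library and was compared after the data were seen, SPARC differed by -1.24 on day 2 and by -1.53 in co-culture. The 9 tested fibroblast markers had median log2 fold changes of -1.20 and -1.06 in the same comparisons. A difference particular to SPARC is therefore not read.

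The genes whose profile over the 8 mixed libraries was most like that of S100A10 were PSMA6 and PSMA2, which encode subunits of the proteasome. Likeness was the root mean square difference between log2(RPKM + 1) profiles centred on their own means, over 1646 genes with a mean above that of the median gene. PSMA6 came first at 0.35 and PSMA2 second at 0.43, against a median of 1.16. PSMA6 had 217 and 147 RPKM in the day 1 heterokaryons, 96.2 and 116 in those of day 2, and 79.7 and 41.6 in those of day 3, against 43.2 and 38.0 in the co-cultures. It shared the low value in day 3 replicate 2. The nearest profiles to S100A3 were TMEM223 at 0.55 and RFFL at 0.58. S100A8 and S100A9 are at 0 in nearly every library, so no likeness is read for them.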

How the data were processed

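PolyA RNA libraries of 12 samples were analysed from deposited tables with 1 value per RefSeq accession. The authors' notes name the builds hg19 and mm10, per the submitters' processing notes; aligner, counter and normalization are not given in the sources used here. The deposited values were treated as RPKM, which is inferred from their form. A further fault was found: of 149 accessions of 6 digits that share their first 9 characters with a 9-digit accession, 1 is listed, against 97 of 115 without such a partner; they were taken as not covered, and no member is among them. Genes beside an unnamed accession (142) were set aside. Unfused fibroblast replicate 3 was left out. No column of another sample was used.

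Genes covered by every library of both groups, with a value of 1 or more in at least 2 samples, were fitted with limma 3.58.1 in R 4.3.3 (lmFit, eBayes with a trend) on log2(value + 1), with 10 libraries of 5 groups sharing the spread and Benjamini-Hochberg adjustment over all genes tested. The script was tested on simulated data. No member was covered in unfused fibroblast replicate 1, so the 4 planned comparisons with that group tested none, and replicate 2 alone was used. Alternatives were pseudocounts of 0.1 and 10, no filter, upper quartile scaling, quantile normalization, a fit of 2 groups, a replicate block, genes covered in part, and each library left out. The members, lists and tests were chosen with earlier results of these data known. All members were named; from each list, up to 4 genes with the smallest adjusted p per comparison and direct partners of members were eligible. Sequences come from GENCODE 29. Names and neighbours come from RefSeq on GRCh38.p14, whose coordinates were not used. One gene of the partner list is not reported here.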

Additional observations from a re-analysis of the deposited data

Results flagged for a closer look

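S100A2 was listed at 9.25 RPKM in heterokaryon day 3 replicate 1, past the accession at which that table otherwise stops. It is a signal outside the covered part, so it entered no comparison; values past the stop repeat those found earlier in the same table. Both day 1 heterokaryon libraries had more (16.7 and 10.9 RPKM) and co-culture replicate 2 had 4.89. A listing past the stop says that the transcript had a value in that library, and an absent one says nothing, so no level can be given for the other day 3 library.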

How the results depend on the processing

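Of 489 alternative fits of single members, 461 kept the direction and the side of the threshold, 6 passed newly and 22 turned the direction. No member was called in any comparison as reported. The fit of only the 2 groups called 1 member, S100A10, on day 1 and on day 2, and the replicate block called 1 on day 1 (adjusted p = 0.0384) but not on day 2 (adjusted p = 0.0925); the block changed no other call of a member, and the crossed block for day 3 against day 2 called 0. Among the listed genes the block ended the calls of CAPNS1 on day 2 and KRT14 on day 3. The replicate numbers do not pair the samples: the labels give them no shared source, and deviations of same-numbered libraries correlated between -0.108 and 0.109 over 981 genes. Over all genes the block called 324, 198 and 69 on the 3 days against co-culture, the fit of only the 2 groups 218, 512 and 12, and the fit reported 396, 263 and 107. No filter on low values gave 242 on day 1, and genes covered in part 173 on day 2 and 71 on day 3. Without either co-culture library 42 to 48, 36 to 46 and 5 to 14 genes were called on the 3 days, without either day 2 library 29 to 38 on day 2, and on day 3 there were 167 without day 3 replicate 1 and 57 without day 3 replicate 2. With a library left out, 0 to 1 members were called on day 1 and on day 2 against co-culture, 1 being S100A10 without day 3 replicate 2, and 0 to 1 for day 3 against day 1, 1 being S100A10 without day 3 replicate 1.

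Log2 fold changes of S100A10 with a library left out ran from -0.61 to 1.56 on day 3 against co-culture, -1.34 to 0.83 on day 3 against unfused fibroblast replicate 2 and -0.68 to 1.49 on day 3 against the homokaryon library. Those of S100A3 ran from -0.59 to 2.12 on day 1 and -0.27 to 2.43 on day 2 against co-culture, from -0.077 to 0.71 for day 2 against day 1, and from -0.22 to 1.14 for day 3 against day 2. For co-culture they ran from -1.66 to 1.04 against unfused fibroblast replicate 2 and from -0.64 to 2.07 against the homokaryon library. S100A9 ran from -0.32 to 2.43 for day 3 against day 2. It was at 0 in day 2 replicate 2 and day 3 replicate 1, so this range follows the library left out and carries no direction. Upper quartile scaling turned S100A3 to -0.19 for day 1 against unfused fibroblast replicate 2. The covered accession of S100A4 turned when single libraries were left out, to -0.29 for day 3 against co-culture, -0.10 and -1.17 for day 2 against day 1, 0.014 for day 3 against day 2, 0.23 and 0.59 for day 3 against day 1, and -0.46 and -0.91 for day 1 and day 3 against unfused fibroblast replicate 2. It also turned to -0.12 for day 3 and -0.23 for co-culture against the homokaryon library, and to -0.25 for day 1 against co-culture replicate 2. None of the turned values passed, and apart from the libraries left out the cause was not tested.

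Read totals are unknown, so values near 0 carry no interval, and 2 libraries per group leave wide ones. S100A6 and the planned comparisons with unfused fibroblast replicate 1 gave no value.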
